A study of Drosophila melanogaster with 8 samples.

Results

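The comparison described here set clock neurons of the adult Drosophila melanogaster brain in the early night, at zeitgeber time 14 (ZT14), against the same driver line in the early day, at ZT2. It rests on 4 of the 8 libraries of the series, those made from neurons in which clk856-GAL4 drove EGFP, with 2 libraries at each time. All 17868 genes in the deposited tables were read, and 8188 of them held enough reads to be tested. The rule singles out genes whose 2 ZT14 libraries both lay above, or both lay below, the 2 ZT2 libraries, and 3135 of the 8188 tested genes met it. Other genes of the clock, of the gene lists and of the references are described beside them, and where their libraries overlapped this is said.

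The molecular clock of the fly is a transcriptional feedback loop. The CLOCK-CYCLE (CLK-CYC) heterodimer binds E-box elements and drives transcription of per, tim, vri, Pdp1 and cwo. The PER and TIM proteins later enter the nucleus and repress CLK-CYC, while VRI represses and PDP1 activates transcription of Clk. The neurons that run this clock use it to shape daily rhythms of locomotor activity and sleep, and they signal to each other largely through neuropeptides and G protein-coupled receptors.

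The clock neuron libraries had the genotype clk856>EGFP, and the comparison libraries had the genotype nSyb>EGFP, which labels neurons in general. The flies were males of about 2 weeks that had been kept at 25°C in a light-dark cycle with equal light and dark phases, without any treatment. EGFP-positive neurons of dissociated brains were collected by FACS at either time, their polyadenylated RNA was amplified with the SMART-seq2 protocol, and Nextera XT libraries were sequenced. The GAL4 line labels a mixture of clock neuron classes, so a library is a bulk sample in which fewer cells of a class and less RNA per cell cannot be told apart. The study's methods state that each dissociation of brains yielded 2 collections of neurons, and neither they nor the labels say whether these are R1 and R2 of a time. The p-values therefore measure only the spread between these libraries, which may be technical.

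The 4 clk856 libraries held between 4823985 and 8439193 reads assigned to genes, and 8939 to 9991 genes had at least 1 read. Levels are given below as CPM, the counts of a gene per 1000000 reads on genes, after TMM scaling over these libraries, whose scaling factors lay between 0.994 and 1.01. With 0.5 CPM added to each value, the median absolute log2 difference between R1 and R2 was 0.375 at ZT2 and 0.267 at ZT14. The difference between the means of the 2 times, taken in the same way, had a median of 0.274. The last value is a difference of means over 2 libraries, which spread less than single libraries do, so it is not directly comparable with the others. The labels were checked against defining markers. Pdf, which encodes the neuropeptide of the ventrolateral clock neurons, had 199.8 to 913 CPM before scaling in the clk856 libraries and 0 to 0.371 in the nSyb libraries. Clk had 29.7 to 225 CPM before scaling in clk856 and 0 to 0.248 in nSyb, whereas the pan-neuronal gene nSyb itself had similar ranges, 2018 to 2361 and 1781 to 2080. Markers of other cell types were low but not absent in clk856: the summed CPM was 194 to 291 for the listed glial genes, 1.04 to 20.1 for 12 photoreceptor genes, 6.06 to 45.0 for 9 fat body genes, 3.47 to 14.7 for 8 muscle genes and 283 to 394 for 7 hemocyte genes, against 6114 to 6471 for 6 neuronal genes. The photoreceptor genes ninaA, trpl, inaD, Arr2, Rh3 and Rh6 and the hemocyte gene He had no read in any of the 4 libraries.

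The day-night differences that passed the test lay in targets of CLK-CYC. In a quasi-likelihood F test of edgeR over all 8188 genes, 2 genes passed an adjusted p of 0.05 (0.0244% of the genes tested), vri and tim, and both rose at ZT14. No gene fell past that threshold, although 554 genes had an unadjusted p under 0.05 (6.77% of the genes tested), 290 of them lower (3.54%) and 264 higher (3.22%) at ZT14.

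vri encodes a basic leucine zipper repressor of Clk and lies on chromosome 2L from 5288944 to 5311223 of the dm6 genome, on the plus strand. Its level was 45.3 and 44.7 CPM in the ZT2 libraries and 585 and 526 CPM in the ZT14 libraries. The replicates at each time lay close together while the lowest ZT14 library was 11.6-fold above the highest ZT2 library. The mean rose from 45.0 ± 0.385 to 555 ± 42.2 CPM (SD, n = 2 each), a ratio of 12.3 and a log2 change of 3.63 (SE 0.16, adjusted p = 0.00274 by edgeR).

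tim encodes the light-sensitive partner of PER and lies on chromosome 2L from 3493986 to 3508119, on the minus strand. It had 37.4 and 60.4 CPM at ZT2 and 1049.9 and 1118 CPM at ZT14, the largest ratio of the clock genes. The mean rose from 48.9 ± 16.2 to 1084 ± 47.9 CPM (SD, n = 2 each), which is 22.2-fold, with a log2 change of 4.48 (SE 0.25, adjusted p = 0.00657 by edgeR). About 9.89% of the exon bases of tim are shared with other annotated genes, so reads there may have been assigned to either gene or left out.

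When all 8 libraries were put in 1 edgeR model, no gene passed the threshold for clk856, tim and vri included, and 179 genes had an unadjusted p under 0.05. The biological coefficient of variation was 0.414 over the clk856 libraries and 0.725 over all 8.

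The remaining E-box targets did not pass the adjusted threshold, and their values differed in size. Pdp1, the activator of Clk transcription, had 1252 and 1326 CPM at ZT2 and 2400.4 and 2367 CPM at ZT14. Its replicates lay within a narrow range and did not overlap between times, and the log2 difference was 0.89 (SE 0.08, adjusted p = 0.0584 by edgeR). per, the gene for the repressor PERIOD, had 55.7 and 68.1 CPM at ZT2 and 115 and 122 CPM at ZT14. That is a ratio of 1.91, also without overlap (log2 difference 0.94, SE 0.21, adjusted p = 0.631 by edgeR). cwo, an Orange-domain repressor that competes for E-boxes, had 127 and 147 CPM at ZT2 and 131 and 149 CPM at ZT14, so its libraries overlapped. Thus 4 of the 5 E-box targets were higher in both ZT14 libraries, where 20.5% of all tested genes were, and the median log2 difference of the 5 was 0.94 against 0.02 for all tested genes.

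Clk and cry, which belong to the opposite arm of the loop, were lower in both ZT14 libraries. Clk, on chromosome 3L from 7763233 to 7775603, had 173 and 227 CPM at ZT2 and 29.9 and 34.7 CPM at ZT14. The mean was 199.7 ± 38.2 CPM at ZT2 and 32.3 ± 3.37 CPM at ZT14 (SD, n = 2 each), a 6.19-fold higher level in the morning, with a log2 difference of -2.63 (SE 0.23) that narrowly missed the threshold (adjusted p = 0.0559 by edgeR). cry, the blue-light photoreceptor that triggers TIM degradation, had 129 and 107 CPM at ZT2 and 54.7 and 96.0 CPM at ZT14. Its replicates at ZT14 lay further apart than the gap between the times, and 17.8% of its exon bases are shared with other genes (log2 difference -0.65, SE 0.30, adjusted p = 0.758 by edgeR). cyc, whose product is the partner of CLK, had 63.7 and 48.3 CPM at ZT2 and 63.5 and 68.2 CPM at ZT14, with overlapping libraries.

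The reference genes gave the scale of an unremarkable difference. Act5C, a cytoplasmic actin, had 2358 and 2307 CPM at ZT2 and 2461 and 2477 CPM at ZT14, a ratio of 1.06 that nevertheless left its libraries without overlap. RpL32, a ribosomal protein gene often used for normalization, had 307 and 418 CPM at ZT2 and 372 and 332 CPM at ZT14. The absence of overlap on its own therefore carried little information about the size of a difference.

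**Figure D1:**
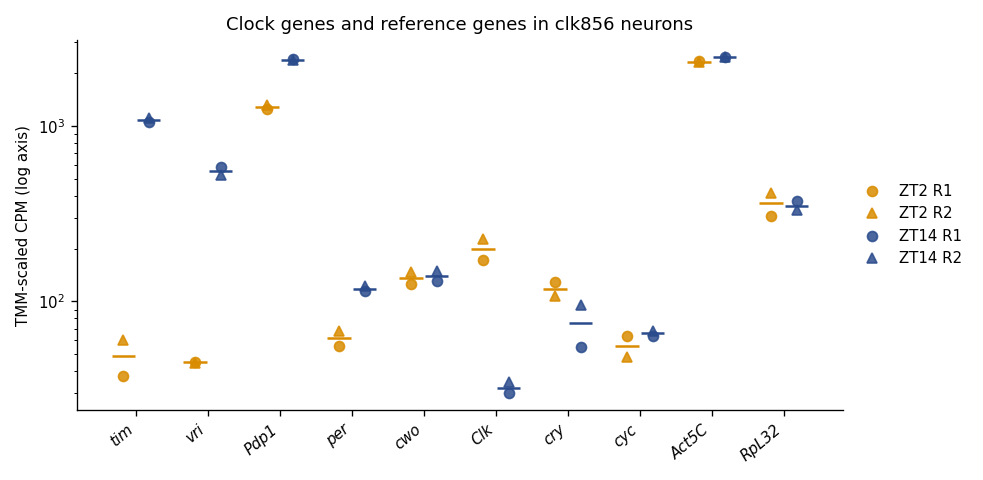
Expression of clock genes and 2 reference genes in each clk856 library, as TMM-scaled CPM on a log axis, with ZT2 libraries in orange, ZT14 libraries in blue, R1 as circles, R2 as triangles and a bar at the mean of each time. tim and vri stand more than 10-fold higher at ZT14, Clk stands 6.19-fold lower, and cwo, cyc and RpL32 overlap.

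The proteins that modify or degrade PER and TIM are encoded by genes with smaller differences. Of 17 tested genes for clock kinases, phosphatases and protein turnover, 3 were higher and 5 lower in both ZT14 libraries (17.6% and 29.4%, against 20.5% and 17.8% of all tested genes), with a median log2 difference of -0.01. nmo, whose kinase is known to phosphorylate clock proteins, had 548 and 508 CPM at ZT2 and 391 and 365 CPM at ZT14 (log2 difference -0.48, SE 0.13). ctrip, a ubiquitin ligase gene known to affect CLK levels, had 168 and 159 CPM at ZT2 and 241 and 212 CPM at ZT14 (log2 difference 0.47, SE 0.16). These 2 genes had the smallest p of the list in each direction, 0.00897 and 0.0220 unadjusted by edgeR, and neither passed the adjusted threshold. Genes for light and temperature input numbered 7 among those tested, and 0 were higher and 3 lower in both ZT14 libraries (0% and 42.9%, where the shares of all tested genes were 20.5% and 17.8%). norpA, the phospholipase C of phototransduction, had 489 and 398 CPM at ZT2 and 308 and 332 CPM at ZT14. TrpA1, a temperature-sensitive channel, had 74.6 and 90.0 CPM at ZT2 and 58.2 and 35.4 CPM at ZT14.

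Over the whole transcriptome, 3135 genes, 38.3% of those tested, had libraries that did not overlap between the times. Of these, 1680 were higher at ZT14 (20.5%) and 1455 were lower (17.8%). Most of the differences were small, with a median absolute log2 difference of 0.46 among the higher genes and 0.46 among the lower genes. A fitted difference of at least 2-fold was present for 369 of the higher genes and 277 of the lower genes, and the nearest libraries of the times were at least 2-fold apart for 185 and 119 genes. Large differences were concentrated at low levels. Among 2486 genes with a mean of at least 100 CPM, 470 were higher without overlap, of which 4 by at least 2-fold, and 540 were lower without overlap, of which 9 by at least 2-fold. Among 1095 genes below 5 CPM, 202 higher and 129 lower genes reached that fold. But there the replicates themselves differed by a median absolute log2 value of 1.34 at ZT2 and 1.01 at ZT14. These medians are of values with 0.5 CPM added, which narrows the spread at low levels and was not done for the fitted folds. With 2 libraries against 2, a two-sided exact permutation test cannot give a p below 0.333, so the rule of no overlap has no test of its own. For a gene whose 4 libraries were interchangeable, 0.333 is also the probability of no overlap. The 38.3% of tested genes without overlap is to be read beside that share. It includes genes that could be tested only because both libraries of a single time were high, as described below.

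**Figure D2:**
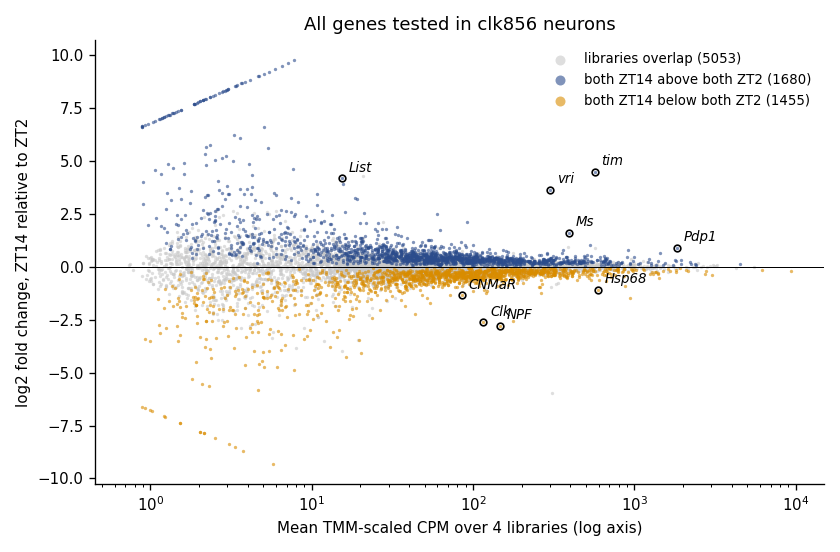
Fitted log2 difference, ZT14 minus ZT2, of each of the 8188 tested genes against its mean level in CPM on a log axis, with 1680 genes higher without overlap in blue, 1455 lower without overlap in orange and overlapping genes in gray. The spread widens toward low levels, where straight bands are formed by genes with 0 reads at one time, and tim, vri and Clk stand apart at moderate levels.

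Several genes outside the core loop stood out among those higher at ZT14, although none passed the adjusted threshold. Ms, which encodes the neuropeptide myosuppressin, had 216 and 179.7 CPM at ZT2 and 520.2 and 663 CPM at ZT14, a ratio of 2.99. All 4 libraries had at least 860 reads of Ms, and the log2 difference was 1.58 (SE 0.18, adjusted p = 0.172 by edgeR). Ms was also higher in both ZT14 libraries of nSyb, with 73.5 and 38.9 CPM at ZT2 and 269 and 174 CPM at ZT14, and the difference of the log2 time effects, clk856 minus nSyb, was -0.41 (SE 0.47, adjusted p = 0.973 by edgeR). CG15628 had 347 and 355 CPM at ZT2 and 749 and 677 CPM at ZT14, with a log2 difference of 1.02 (SE 0.12, adjusted p = 0.199 by edgeR). CG31324 had 40.6 and 27.8 CPM at ZT2 and 175 and 124 CPM at ZT14. The lowest ZT14 library of CG31324 was 3.06-fold above its highest ZT2 library.

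List, a member of the sodium-dependent neurotransmitter transporter family, was close to the limit of detection at ZT2, with 16 and 6 reads, and had 197 and 213 reads at ZT14. In CPM these were 1.90 and 1.25 against 28.9 and 29.5, so that the nearest libraries of the 2 times were 15.2-fold apart (log2 difference 4.17, SE 0.61, adjusted p = 0.384 by edgeR). In nSyb the gene had 0 and 17.7 CPM at ZT2 and 0 and 38.2 CPM at ZT14, where the replicates did not resemble each other. Tsf1, which encodes the iron-binding protein transferrin, had 51.1 and 52.2 CPM at ZT2 and 104 and 129 CPM at ZT14. SiaT, the sialyltransferase gene of the fly, had 20.2 and 18.2 CPM at ZT2 and 48.2 and 57.0 CPM at ZT14. These 2 genes thus had a level more than 2-fold higher at ZT14, with ratios of 2.25 and 2.74 and adjusted p values by edgeR of 0.601 and 0.631.

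Among genes lower at ZT14, the neuropeptide receptor gene CNMaR had closely matching replicates. It had 120.1 and 125 CPM at ZT2 and 45.9 and 50.3 CPM at ZT14, a level 2.55-fold higher in the morning (log2 difference -1.35, SE 0.20, adjusted p = 0.384 by edgeR). The co-chaperone gene stv, whose product binds Hsp70 proteins, had 362 and 326 CPM at ZT2 and 163 and 191 CPM at ZT14. bru3, an RNA-binding protein gene of the Bruno family, had 1757 and 1637 CPM at ZT2 and 1127 and 1185 CPM at ZT14. Both genes lay below their ZT2 values in each ZT14 library, by log2 differences of -0.96 (SE 0.16) and -0.55 (SE 0.09), with an adjusted p of 0.59 by edgeR for either.

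AsnS, the asparagine synthetase gene, had 49.5 and 94.4 CPM at ZT2 and 9.97 and 20.2 CPM at ZT14. CG11906 had 51.4 and 67.1 CPM at ZT2 and 17.7 and 15.1 CPM at ZT14. In both genes the time difference exceeded the spread of replicates, which for AsnS was itself about 2-fold at each time. Best1, a bestrophin chloride channel gene, had 193 and 177 CPM at ZT2 and 105 and 89.2 CPM at ZT14. Argk, the arginine kinase that buffers cellular ATP, had 3017 and 3107 CPM at ZT2 and 2371 and 2393 CPM at ZT14. The noncoding RNA roX1, a part of the dosage compensation complex of males, had 3299 and 3575 CPM at ZT2 and 2637 and 2563 CPM at ZT14. The last pair of genes show that a small ratio, 1.29-fold and 1.32-fold higher at ZT2, could separate the libraries clearly where a gene was highly expressed.

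**Figure D3:**
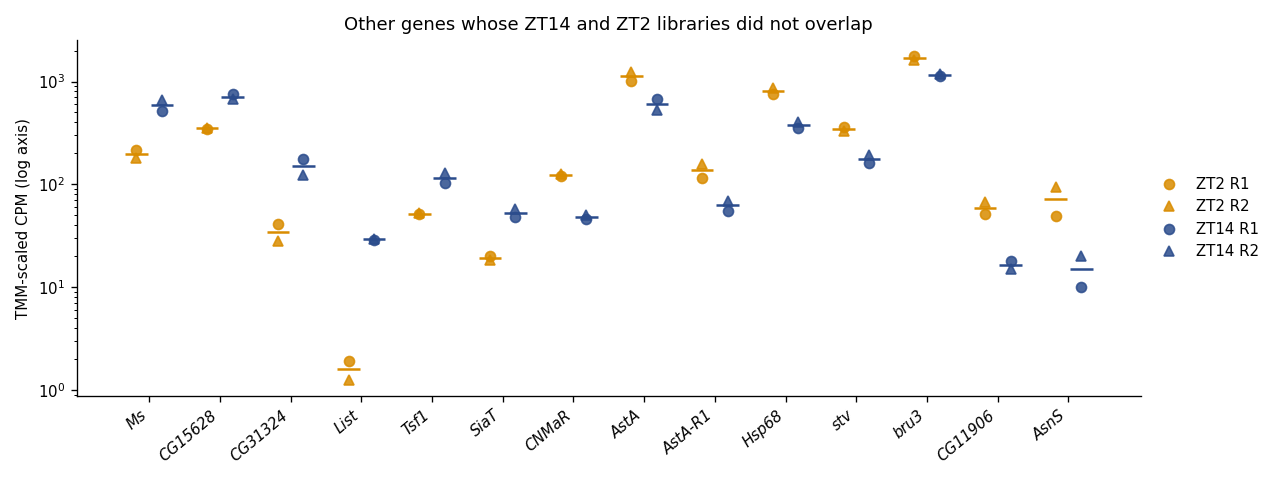
Expression of 14 further genes in each clk856 library, as TMM-scaled CPM on a log axis, with ZT2 in orange, ZT14 in blue, R1 as circles, R2 as triangles and bars at the means. The 6 genes on the left were higher in both ZT14 libraries and the 8 on the right were lower in both, with List the lowest at ZT2 at 1.90 and 1.25 CPM.

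A set of 119 tested genes had no more than 3 reads in each library of one time, 90 of them at ZT2 and 29 at ZT14. The filter asks for a level above that of 3 reads in as many libraries as a time holds. Each of these genes was thus tested only because both libraries of its other time were high. The filter itself fixed their lack of overlap and its direction, which are no result about them, and they count among the 3135. For the 119 genes the fitted change depends on the prior count, and only a lower bound against 3 reads per library is given. It is a bound on the ratio of means, so the lower library of the higher time can lie under it. CG4815 had 0 reads in both ZT2 libraries and 75 and 146 reads at ZT14, at least 31.8-fold higher. E(spl)m6-BFM, a Bearded family gene of the Enhancer of split complex, had 0 reads at ZT2 and 97 and 69 reads at ZT14, at least 24.2-fold higher. mesh, which encodes a septate junction protein known from the midgut, had 0 reads at ZT2 and 84 and 67 reads at ZT14, at least 22.0-fold higher. All 3 genes reached no more than 20.2 CPM in any library and had an adjusted p of at least 0.601 by edgeR. NimC1, a phagocytic receptor that marks hemocytes, had 0 reads in the ZT2 libraries and 50 and 31 reads at ZT14, while the hemocyte genes Hml and eater had reads in ZT14 R2 alone, 174 and 17. The part of other cell types in these low-level differences was not tested.

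The clock network signals through neuropeptides, and several of their genes varied widely between replicates. The list of neuropeptide genes had 13 tested members, not all of them peptides of clock neurons themselves. Of these, 2 were higher and 4 lower in both ZT14 libraries (15.4% and 30.8%, against 20.5% and 17.8% of all tested genes). None of the 13 passed the adjusted threshold. AstA, which encodes allatostatin A, had 1019 and 1251 CPM at ZT2 and 675 and 533 CPM at ZT14 (log2 difference -0.91, SE 0.16, adjusted p = 0.601 by edgeR). NPF, the fly relative of neuropeptide Y, had 149 and 366 CPM at ZT2 and 18.5 and 55.6 CPM at ZT14. Its ZT14 mean was 6.95-fold below its ZT2 mean, but replicates at a single time differed by more than 2-fold (log2 difference -2.79, SE 0.62, adjusted p = 0.631 by edgeR). AstC, which encodes allatostatin C, was lower by a smaller margin, with 2376 and 2004 CPM at ZT2 and 1966 and 1964 CPM at ZT14. Trissin was lower too, with 136 and 124 reads at ZT2 and 1 and 49 reads at ZT14.

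Dh44, a diuretic hormone gene expressed in neurons that relay clock output, was higher without overlap, with 436 and 446 CPM at ZT2 and 511.2 and 542 CPM at ZT14. ITP, the ion transport peptide of evening neurons, had 2 and 50 reads at ZT2 and 144 and 83 reads at ZT14. In CPM these were 0.238 and 10.4 against 21.1 and 11.5, so the nearest libraries of the 2 times were almost equal. Pdf had 200.3 and 613 CPM at ZT2 and 572 and 905 CPM at ZT14, so the libraries of the 2 times overlapped and the replicates at ZT2 differed 3-fold. sNPF, Dh31 and Nplp1 also overlapped, with ranges over the 4 libraries of 199.7 to 524, 311 to 838 and 638 to 922 CPM.

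The values of 3 peptide genes differed widely between the replicates of a time. Hug, the hugin peptide gene, had 10256 reads in ZT2 R1 but 16 in ZT2 R2, and 11 and 129 reads at ZT14. CCHa1 had 202 and 45 reads at ZT2 and 0 and 508 at ZT14, and CNMa had 245 and 1 reads at ZT2 and 382 and 0 at ZT14. No direction between the times can be read for these genes, and without ZT2 R1 the log2 difference of Hug was 1.53 in place of -5.96.

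**Figure D4:**
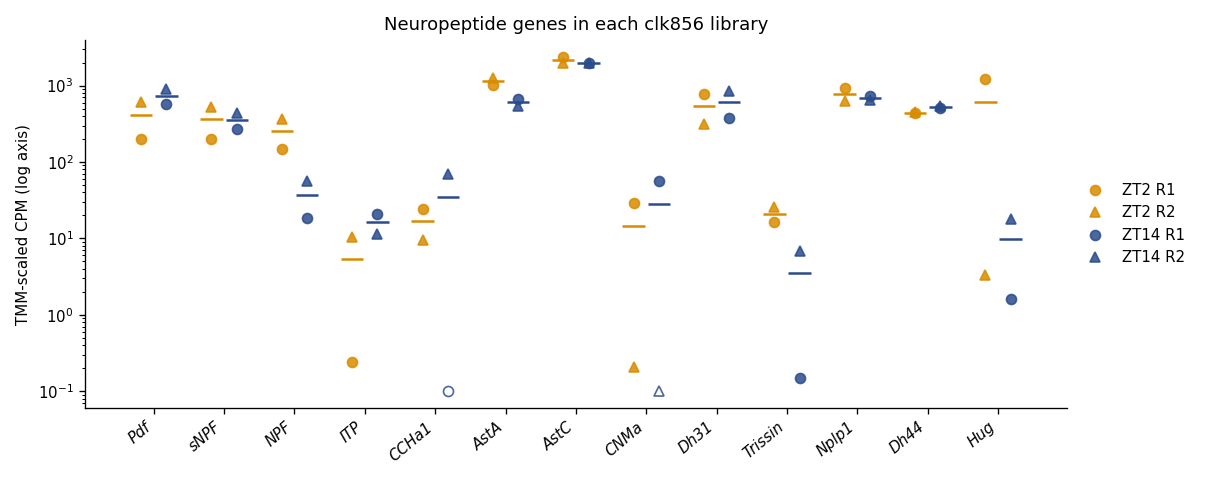
Expression of 13 neuropeptide genes in each clk856 library, as TMM-scaled CPM on a log axis, with ZT2 in orange, ZT14 in blue, R1 as circles, R2 as triangles and bars at the means. Open symbols at 0.1 stand for libraries with 0 reads. AstA and NPF were lower in both ZT14 libraries, whereas Hug, CCHa1 and CNMa each differed more between replicates than between times.

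Receptors of neuropeptides were more often lower than higher at ZT14. Of 24 tested peptide receptor genes, 1 was higher and 10 were lower in both ZT14 libraries (4.17% and 41.7%, against 20.5% and 17.8% of all tested genes), and the median log2 difference was -0.44. The summed level of the list was 1632 and 1746 CPM at ZT2 and 1247 and 1266 CPM at ZT14. When each library was left out in turn, the median lay between -0.61 and -0.35. AstA-R1, a receptor of allatostatin A, had 116 and 158 CPM at ZT2 and 55.6 and 69.1 CPM at ZT14 (log2 difference -1.14, SE 0.24). Dh44-R1, which binds the peptide DH44, had 147 and 137 CPM at ZT2 and 49.1 and 101 CPM at ZT14. AstC-R2, a receptor of allatostatin C, was the single member higher in both ZT14 libraries, with 41.6 and 32.2 CPM at ZT2 and 92.3 and 54.6 CPM at ZT14. The PDF receptor gene Pdfr overlapped in CPM, with 112 and 184 CPM at ZT2 and 124 and 102 CPM at ZT14. AstA and AstA-R1 were thus both lower at ZT14, whereas no member of the receptor list passed the adjusted threshold.

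Amine receptor genes had a median log2 difference of -0.10, with 1 of 16 tested genes higher and 4 lower without overlap (6.25% and 25%, against 20.5% and 17.8% of all tested genes). 5-HT7, a serotonin receptor gene, had 76.6 and 79.6 CPM at ZT2 and 42.8 and 46.3 CPM at ZT14. Oct-TyrR, an octopamine and tyramine receptor gene, had 139 and 167 CPM at ZT2 and 77.2 and 102 CPM at ZT14. Oamb, another octopamine receptor gene, had 195 and 278 CPM at ZT2 and 126 and 154 CPM at ZT14. All 3 were lower in both ZT14 libraries, with adjusted p values of 0.686 to 0.690 by edgeR. The dopamine receptor genes Dop1R1, Dop1R2, Dop2R and DopEcR each overlapped between the times. Dop1R1, which couples to the stimulatory G protein, had 222 and 281 CPM at ZT2 and 236 and 291 CPM at ZT14. Dop2R, which couples to an inhibitory G protein, had 439 and 566 CPM at ZT2 and 598 and 327 CPM at ZT14.

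Genes of cyclic AMP and G protein signaling, which act downstream of these receptors, had 2 of 16 tested members higher and 10 lower without overlap (12.5% and 62.5%, against 20.5% and 17.8% of all tested genes). Their median log2 difference was -0.20, between -0.22 and -0.15 when a library was left out, and their summed level was 7123 and 6753 CPM at ZT2 and 6066 and 6223 CPM at ZT14. dnc, the phosphodiesterase that degrades cyclic AMP, had 632 and 538 CPM at ZT2 and 459 and 391 CPM at ZT14. Pka-R1, a regulatory subunit of protein kinase A, had 607 and 724 CPM at ZT2 and 459 and 547 CPM at ZT14. Ac13E, an adenylate cyclase gene, had 122 and 112 CPM at ZT2 and 57.5 and 89.9 CPM at ZT14. Another adenylate cyclase gene, Ac3, went the other way, with 189 and 197 CPM at ZT2 and 259 and 271 CPM at ZT14. The smallest adjusted p of the list was 0.69 by edgeR, and each named member differed by less than 2-fold.

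Among the genes for transcription factors that respond to neuronal activity, Hr38 and CrebB differed in opposite directions without passing the threshold. Hr38, an orphan nuclear receptor, had 47.6 and 16.3 CPM at ZT2 and 64.9 and 90.7 CPM at ZT14. CrebB, the CREB homolog, had 41.0 and 36.1 CPM at ZT2 and 17.0 and 19.4 CPM at ZT14. Hr38 differed in nSyb with the opposite sign, with 187 and 152 CPM at ZT2 and 48.3 and 59.6 CPM at ZT14, and the difference of the log2 time effects was 2.91 (SE 0.69, adjusted p = 0.56 by edgeR).

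Genes that set neuronal excitability showed no common direction, with 5 of 30 tested genes higher and 8 lower without overlap (16.7% and 26.7%, against 20.5% and 17.8% of all tested genes) and a median log2 difference of 0.02. SK, a calcium-activated potassium channel gene, had 632 and 504.9 CPM at ZT2 and 773 and 724 CPM at ZT14. eag, a voltage-gated potassium channel gene, had 121 and 168 CPM at ZT2 and 221 and 193 CPM at ZT14, whereas its relative Elk had 83.0 and 90.0 CPM at ZT2 and 41.2 and 60.6 CPM at ZT14. unc80, which encodes a subunit of the sodium leak channel complex, had 419.6 and 527 CPM at ZT2 and 347 and 359 CPM at ZT14. Atpalpha, the sodium pump subunit, differed by a ratio of only 1.10, with 6534 and 6503 CPM at ZT2 and 5993 and 5825 CPM at ZT14.

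Of 9 tested genes for peptide processing and secretion, 1 was higher and 4 were lower without overlap (11.1% and 44.4%, against 20.5% and 17.8% of all tested genes). Cadps, which primes dense core vesicles, had 406 and 478 CPM at ZT2 and 670.4 and 592 CPM at ZT14. amon, the prohormone convertase, had 1576 and 1545 CPM at ZT2 and 1121 and 1383 CPM at ZT14. In the list of transmitter synthesis and transport genes, ple, the tyrosine hydroxylase of dopamine synthesis, had 637 and 704 CPM at ZT2 and 1513 and 777 CPM at ZT14, where 1 library set most of the difference. Ddc, the next enzyme of dopamine synthesis, had 786 and 762 CPM at ZT2 and 664 and 579 CPM at ZT14. Its difference had the opposite sign to that of ple, for which the nearest libraries of the times were only 1.10-fold apart.

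Heat-shock protein and chaperone genes were mostly lower at ZT14, with 11 of 20 tested genes lower and 1 higher without overlap (55% and 5%, against 17.8% and 20.5% of all tested genes). Their median log2 difference was -0.23, between -0.34 and -0.15 when a library was left out, and their summed level was 10367 and 10032 CPM at ZT2 and 8472 and 9125 CPM at ZT14. Hsp68, an inducible member of the Hsp70 family, had 749 and 872 CPM at ZT2 and 349 and 403 CPM at ZT14 (log2 difference -1.11, SE 0.14, adjusted p = 0.241 by edgeR). Hsp26, a small heat-shock protein gene, had 1106 and 889 CPM at ZT2 and 668 and 806 CPM at ZT14. The major cytosolic chaperone gene Hsp83 overlapped in CPM, with 14684 and 8217 reads at ZT2 and 11537 and 12876 reads at ZT14. These reads are not scaled for the depth of the libraries, so their spread is not that of the level. The Hsp70 genes are near-identical copies, so their separate values are uncertain.

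Hsp68 was the single gene whose time effect differed between clk856 and nSyb neurons past an adjusted p of 0.05, 1 of 8926 genes tested (0.0112%), where 581 genes had an unadjusted p under 0.05 (6.51%). In nSyb it had 32.1 and 33.1 CPM at ZT2 and 126 and 115 CPM at ZT14. It was thus higher at night in the nSyb libraries and lower at night in the clk856 libraries. The study dissected different numbers of brains for the drivers, kept them on ice until dissections ended, and sorted different numbers of neurons. Neuron type and handling by driver therefore cannot be told apart here, and neither was tested. The difference of the log2 time effects was -3.01 (SE 0.23, adjusted p = 0.0119 by edgeR). The call was absent when clk856 ZT2 R1, clk856 ZT2 R2 or clk856 ZT14 R1 was left out, where 0 genes passed. For tim and vri the difference of the time effects had the values 3.30 (SE 1.13) and 1.31 (SE 1.67) with adjusted p of 0.746 and 0.993 by edgeR, and the replicates of nSyb differed widely for both, at 6.22 and 53.0 CPM of tim at ZT14. In nSyb alone, 0 of 7671 tested genes passed the threshold by edgeR and 303 (3.95%) had an unadjusted p under 0.05.

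Genes of mitochondrial ribosomes and of the respiratory chain, all encoded in the nucleus, were mostly higher at ZT14. Of 72 tested genes for mitochondrial ribosomal proteins, 43 were higher and 1 was lower without overlap (59.7% and 1.39%, against 20.5% and 17.8% of all tested genes), with a median log2 difference of 0.25. Their summed level was 4243 and 4411 CPM at ZT2 and 5170.3 and 5022 CPM at ZT14, and the median lay between 0.18 and 0.30 when a library was left out. mRpS18A had 96.4 and 81.5 CPM at ZT2 and 129 and 148 CPM at ZT14. mRpL20 had 54.6 and 53.9 CPM at ZT2 and 77.7 and 85.6 CPM at ZT14. These subunits of the small and large mitochondrial ribosome had log2 differences of 0.64 (SE 0.19) and 0.59 (SE 0.22), with adjusted p of 0.69 and 0.699 by edgeR.

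Nuclear genes of the respiratory chain had 43 of 67 tested members higher and 1 lower without overlap (64.2% and 1.49%, against 20.5% and 17.8% of all tested genes), with a median log2 difference of 0.23. The summed level nevertheless overlapped between the times, with 35850.0 and 43608 CPM at ZT2 and 44281 and 41643 CPM at ZT14, and the median lay between 0.12 and 0.31 when a library was left out. SdhD, a membrane anchor of succinate dehydrogenase, had 265 and 284 CPM at ZT2 and 404 and 360.1 CPM at ZT14. ATPsyndelta, a subunit of the ATP synthase, had 283 and 305 CPM at ZT2 and 381 and 402 CPM at ZT14. Reads of both genes may be shared with neighbors, since 13.9% and 35.6% of their exon bases overlap other genes. COX7AL, a paralog of a cytochrome oxidase subunit, had 10 and 4 reads at ZT2 and 72 and 82 reads at ZT14.

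The genes of these 2 groups are short, and short genes in general were higher at ZT14. With the tested genes divided by exon length into 4 classes of nearly equal number, the 2040 genes of the shortest class, 86 to 1316 bases, had a median log2 difference of 0.17, and 32.0% were higher and 10% lower without overlap. The other classes, in order of length, had medians of 0.01, -0.06 and -0.03. Within the shortest class, 77.1% of the respiratory chain genes and 63.1% of the mitochondrial ribosomal genes were higher without overlap, against 30.9% and 31.0% of the other genes of that class. The cytosolic ribosomal protein genes of the same class did not share this, with 17.1% higher against 32.5% of the others. The part of length in the mitochondrial values was not tested. Members of the cyclic AMP and G protein list are long, with 13 of 16 in the longest class, where 21.9% of all genes were lower without overlap.

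Cytosolic ribosomal protein genes had 14 of 84 tested members higher and 4 lower without overlap (16.7% and 4.76%, against 20.5% and 17.8% of all tested genes) and a median log2 difference of 0.06, which lay between -0.09 and 0.22 when a library was left out. Proteasome subunit genes had 13 of 31 higher and 3 lower (41.9% and 9.68%, beside the same shares of all tested genes), with a median of 0.11. Among 20 vacuolar ATPase genes, 7 were higher and 3 lower (35% and 15%). Sleep regulator genes had 0 of 8 higher and 2 lower (0% and 25%), and synaptic vesicle cycle genes had 2 of 19 higher and 4 lower (10.5% and 21.1%). comt, which encodes the NSF ATPase of vesicle fusion, had 573 and 504 CPM at ZT2 and 727 and 788 CPM at ZT14.

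**Figure D5:**
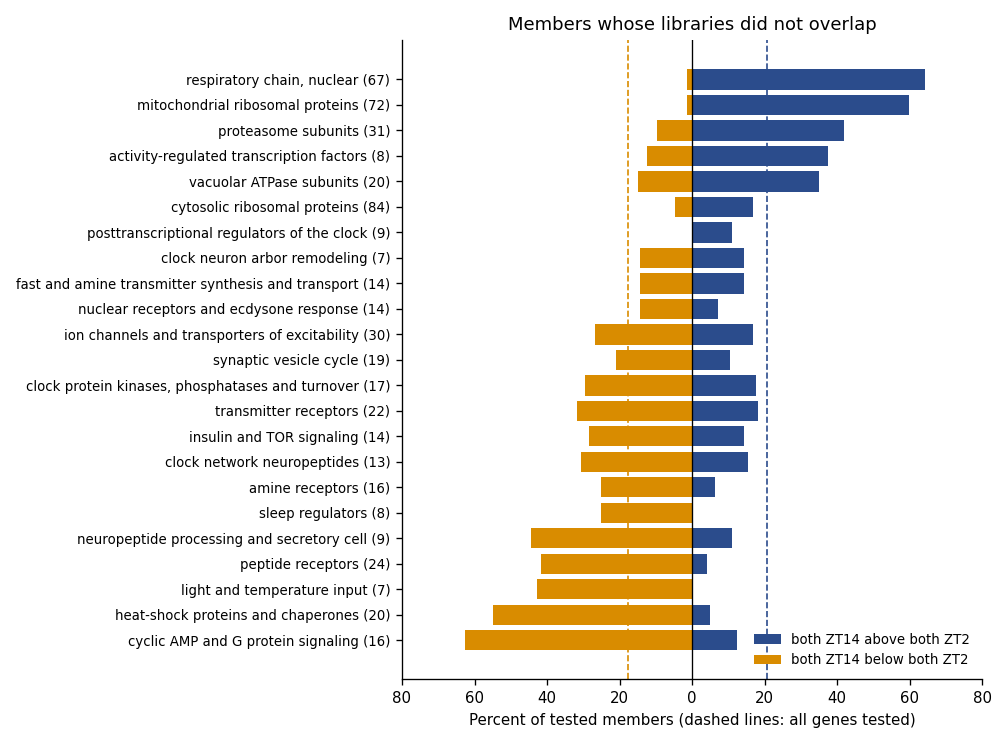
Percent of tested members of each gene list (number tested in parentheses) whose clk856 libraries did not overlap, with members higher in both ZT14 libraries in blue to the right and members lower in both in orange to the left. Dashed lines mark the shares over all tested genes, 20.5% and 17.8%. The respiratory chain and mitochondrial ribosomal lists reach 64.2% and 59.7% on the higher side, and the cyclic AMP and heat-shock lists reach 62.5% and 55% on the lower side.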

How the data were processed

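The study sorted EGFP-positive neurons of clk856>EGFP and nSyb>EGFP flies at ZT2 and ZT14, with R1 and R2 of each. According to the study's methods and processing notes, reads were demultiplexed with bcl2fastq 2.20, aligned to dm6 with STAR and freed of duplicates with Picard; the notes also name edgeR. The counting program, its annotation and strand setting are not given in the sources used here. The authors deposited raw read counts per gene for each library, and beside them RPM and RPKM values. Only the counts deposited by the authors were used here, and the RPM and RPKM columns deposited by the authors were not used. Rows for reads that fell on no gene (5.53 to 6.21% in clk856) or on several genes (5.67 to 5.95%) were left out of library sizes and tests.

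Genes were kept by filterByExpr with a minimum count of 10, scaled by TMM and tested with the quasi-likelihood F test of edgeR 4.0.16 in R 4.3.3, ZT14 against ZT2 in the 4 clk856 libraries, with Benjamini-Hochberg adjustment over 8188 genes. The difference of time effects was fitted over all 8 libraries. Standard errors were taken as the absolute log2 change over the square root of F. A lower bound for a gene with 3 reads or fewer in each library of one time was taken against 3 reads per library (0.356 to 0.627 CPM). It is the mean CPM of the other time over the mean CPM of these floors. Such floors cover counting error only, since reads are not independent molecules. Positions and exon lengths came from the Ensembl BDGP6.54 annotation, in which 17161 genes were found under their symbol and 611 under an older one, while 96 were not found. No sequence is shown and the planned count of promoter motifs was not run. The scripts were tested on simulated counts. The alternatives were DESeq2 1.42.0, limma 3.58.1 voom, other edgeR tests, scalings and filters, the replicate block, thinned counts and each library left out.

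The members and gene lists were chosen with earlier results of these data known. Genes named in the text were drawn from those past the threshold and the 15 with the smallest p in each direction among genes without overlap. Further sources were the 8 in each direction with the largest gap at a mean of at least 20 CPM, and the clock lists and reference genes. Up to 3 members of each other list in each direction, and genes past the threshold for the difference between drivers, were added. Not every gene that met these rules is described, and CG13950, CG12717 and CG42540 are among those left out. Other neuropeptides, dopamine receptors, Pdfr, Hsp83 and the marker genes were named after their values were seen.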

Additional observations from a re-analysis of the deposited data

Results flagged for a closer look

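Hsp68 had opposite day-night differences in the libraries of the 2 drivers, and the test of that difference itself passed the threshold. The log2 time effect in clk856 minus that in nSyb was -3.01 (SE 0.23, adjusted p = 0.0119 by edgeR). Reads in nSyb were 263 and 273 at ZT2 and 1009 and 962 at ZT14, and in clk856 they were 6308 and 4174 at ZT2 and 2382 and 2908 at ZT14. The level in clk856 was thus above that in nSyb at both times, by a larger margin at ZT2. Without clk856 ZT2 R1, clk856 ZT2 R2 or clk856 ZT14 R1 no gene passed the threshold for this difference.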

How the results depend on the processing

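In the 4 clk856 libraries, the 2 calls of the main test, tim and vri, were made in 17 of 18 alternatives for each gene, with log2 changes of 3.54 to 3.70 for vri and 4.15 to 4.86 for tim. The exception was the fit of all 8 libraries, with 0 calls. The number of genes past the threshold moved to 81 of 11662 tested with no filter beyond 1 read. With at least 50 reads in 2 libraries it was 4 of 6923. Of 8188 genes, it was 97 with the likelihood ratio test, 48 with the exact test of edgeR, 85 with DESeq2 and 7 with limma voom. It was 4 of 8188 with legacy = FALSE and 4 of 7915 with counts thinned to the shallowest library, both chosen after seeing the data. Clk was called in 10 of 18 alternatives, Pdp1 in 7 and Ms in 6. Leaving out each library in turn gave 2 to 3 calls. With R1 and R2 as a replicate block 4 genes were called, Clk, NPF, tim and vri, but the deviations of same-numbered libraries correlated at 0.0289, so the numbers were not taken as pairs. The count of genes without overlap ranged from 2691 to 3763, but the number of genes tested differed. The lowest count was of 6923 genes, with at least 50 reads in 2 libraries. The highest was of 11662 genes, with no filter beyond 1 read. The difference between drivers had 85 calls with the likelihood ratio test, 178 with DESeq2, 1 with the replicate block, and 0 to 85 when 1 library was left out, with the 85 without nSyb ZT2 R2. Small or single-library values changed sign: RpL32 was 0.0074 with limma voom and -0.26 to 0.20 over the left-out libraries, cwo was -0.073 to 0.15, and Hug was -8.55 to 1.53. The cause of these changes was not tested. Genes below 5 CPM had too few reads for directions to be read from 2 libraries a time.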

Other observations

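The 3 further tests run on the same 4 clk856 libraries were the likelihood ratio and exact tests of edgeR and the Wald test of DESeq2. Each called more genes than the quasi-likelihood test. All 3 called 44 of the 8188 tested genes, 20 of them higher and 24 lower at ZT14. The 3 tests used the same counts, so their agreement is not separate support. The genes that follow were chosen from these 44 after their values were seen, and none passed the threshold of the quasi-likelihood test. D, which encodes the SoxB transcription factor Dichaete, had 375 and 361 CPM at ZT2 and 116 and 196 CPM at ZT14. lab, the Hox gene labial, had 134 and 34 reads at ZT2 and 0 reads in both ZT14 libraries. Its mean at ZT2 was 26.9-fold above the level of 3 reads per library at ZT14. Both transcription factor genes are known from embryonic patterning. D was lower in both ZT14 libraries. lab, with 0 reads at ZT14, was tested only because both of its ZT2 libraries were high. The filter thus fixed the direction of lab, which is no result about that gene.

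Lac, which encodes the cell adhesion protein Lachesin, had 116 and 49.7 CPM at ZT2 and 26.5 and 24.3 CPM at ZT14. NKCC, a sodium-potassium-chloride cotransporter gene, had 284 and 90 reads at ZT2 and 16 and 31 reads at ZT14. Lac is also expressed by glia in the fly, where it forms part of septate junctions, and the summed level of the listed glial genes was 283 and 255 CPM at ZT2 and 194 and 291 CPM at ZT14. The part of glial RNA in the value of Lac was not tested.

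Genes of chromosome 4, the small and largely heterochromatic chromosome of the fly, had 30 of 87 tested members higher and 7 lower without overlap, where 20.5% and 17.8% of all tested genes were. In all 42.5% of the chromosome 4 genes did not overlap, against 37.1% to 39.1% on the other chromosome arms, and the median log2 difference was 0.13, against -0.01 to 0.03. The pattern was noticed in the data and has no test here.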
